A study of Mus musculus with 17 samples.

Results

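Chemokines are small secreted proteins that direct the migration of cells, mostly leukocytes, along gradients, and they act through G protein-coupled receptors on the responding cells. They are grouped by the spacing of their first cysteines into CC, CXC, XC and CX3C families. Atypical receptors bind the same ligands without G protein signaling and remove or transport them. In bone, stromal cells are a known source of chemokines, whereas most of the signaling receptors are carried by blood and immune cells. The genes described here are the protein-coding mouse chemokines and chemokine receptors found by their symbols (Ccl, Cxcl, Cx3cl1, Xcl1, Ccr, Cxcr, Cx3cr1, Xcr1 and Ackr with their numbers), other than Cxcr4, Cxcl12, Ackr3 and Ccl2. They were 55 of the 55335 gene rows. Of these, 22 encode CC ligands, 11 CXC ligands, 1 a CX3C ligand and 1 an XC ligand, 17 encode signaling receptors and 3 atypical receptors.

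The data were bulk RNA sequencing of 2 stromal populations sorted from the digested bone of female mice aged 8 to 12 weeks. After exclusion of CD45+, TER119+ and CD31+ cells, skeletal stromal cells (SSCs) were sorted as Sca-1+ cells with both CD51 and PDGFRα, and the more committed osteoprogenitor cells (OPCs) as Sca-1- CD51+ cells with or without PDGFRα. The mice were Cxcr4+/+ (WT), Cxcr4+/1013 (+/1013) and Cxcr4 1013/1013 (1013/1013) littermates. The 1013 allele is a knock-in mouse model of WHIM syndrome that truncates the C-terminal tail of the receptor, and it is present in every cell of these animals, hematopoietic cells included. Counts per gene do not show the truncation itself. For each library 3000 cells sorted from 3 mice were pooled. Each population had 3 libraries per genotype, except for 1013/1013 SSCs with 2, hence 9 OPC and 8 SSC libraries. The pools are the replicates, so the spread between animals of a pool was not measured. Since these are bulk libraries, fewer cells of a type and less RNA per cell cannot be told apart.

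Between 64099849 and 92683497 counts fell on genes in an OPC library and between 44217695 and 50509592 in an SSC library. Levels are given as counts per 1000000 counts of the library (CPM), scaled by the trimmed mean of M values (TMM) over all 17 libraries. The limit of detection, 3 counts, corresponded to 0.0407 to 0.0628 CPM depending on the library and covers counting error only. Ly6a, which encodes Sca-1, was at 0.569 to 12.4 CPM in OPCs and at 386 to 1450.1 CPM in SSCs, and Bglap, the osteocalcin gene of mature osteoblasts, was at 497 to 2985 and 5.15 to 50.1 CPM. A set of 3 libraries stood apart in leukocyte transcripts. The summed level of 22 leukocyte markers was 26690.5 CPM in WT OPC replicate 3, 18819.9 CPM in 1013/1013 OPC replicate 2 and 10165.8 CPM in WT SSC replicate 3, and 46.7 to 1045 CPM in the others. Ptprc, which encodes CD45, was at 52.8, 118 and 120 CPM in these 3 libraries and at no more than 9.20 CPM elsewhere, although CD45+ cells had been gated out. Calls between SSCs and OPCs are also given without these libraries. The edgeR differences of Ccr7, Ccl4, Ccr1 and Ccl6 between +/1013 and WT SSCs are also given without WT SSC replicate 3. The 1013/1013 SSC replicate 1 had the fewest detected genes of all libraries, 15748, against 17808 to 22599 in the other SSC libraries.

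Of the 55 genes, 4 had no count in any library (Ccl20, Ccl21a, Ccl26 and Ccl27b), 50 exceeded 3 counts in at least 1 library, and 13 did so in all 17. The 13 were made up of 5 CC ligands, 5 CXC ligands, Cx3cl1 and 2 atypical receptors, and none of the 17 signaling receptors. The mean reached 2 CPM in at least 1 of the 6 groups for 30 genes, namely 9 CC ligands, 8 CXC ligands, Cx3cl1, all 3 atypical receptors and 9 receptors. The other 25 had group means of at most 1.98 CPM, a value reached by Ccl27a in WT SSCs, whose exons overlap those of Il11ra1. To compare genes with each other, levels were divided by exon length. Per kilobase, Cxcl14 and Cxcl1 led in WT SSCs with 62.7 ± 19.9 and 51.9 ± 15.9 CPM per kb (SD, n = 3), followed by Ccl11 with 42.4 ± 24.2 and Ccl7 with 38.4 ± 12.5, and these 4 did not differ beyond their spread. Ackr2 came next with 25.9 ± 8.99 CPM per kb, within the spread of Ccl11. In mutant SSCs the leading 4 were the same genes in another order, with Cxcl1 first at 233 ± 186 in +/1013 (n = 3) and 346 ± 269 CPM per kb in 1013/1013 SSCs (n = 2), again with overlapping spreads. In WT OPCs the order was Cxcl1, Ackr4 and Cxcl14, at 12.2 ± 10.5, 11.8 ± 6.83 and 10.9 ± 7.87 CPM per kb, with no difference beyond the spread. The heatmap of levels by gene and library shows that ligands fill the SSC columns and receptors a few single columns.

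**Figure D1:**
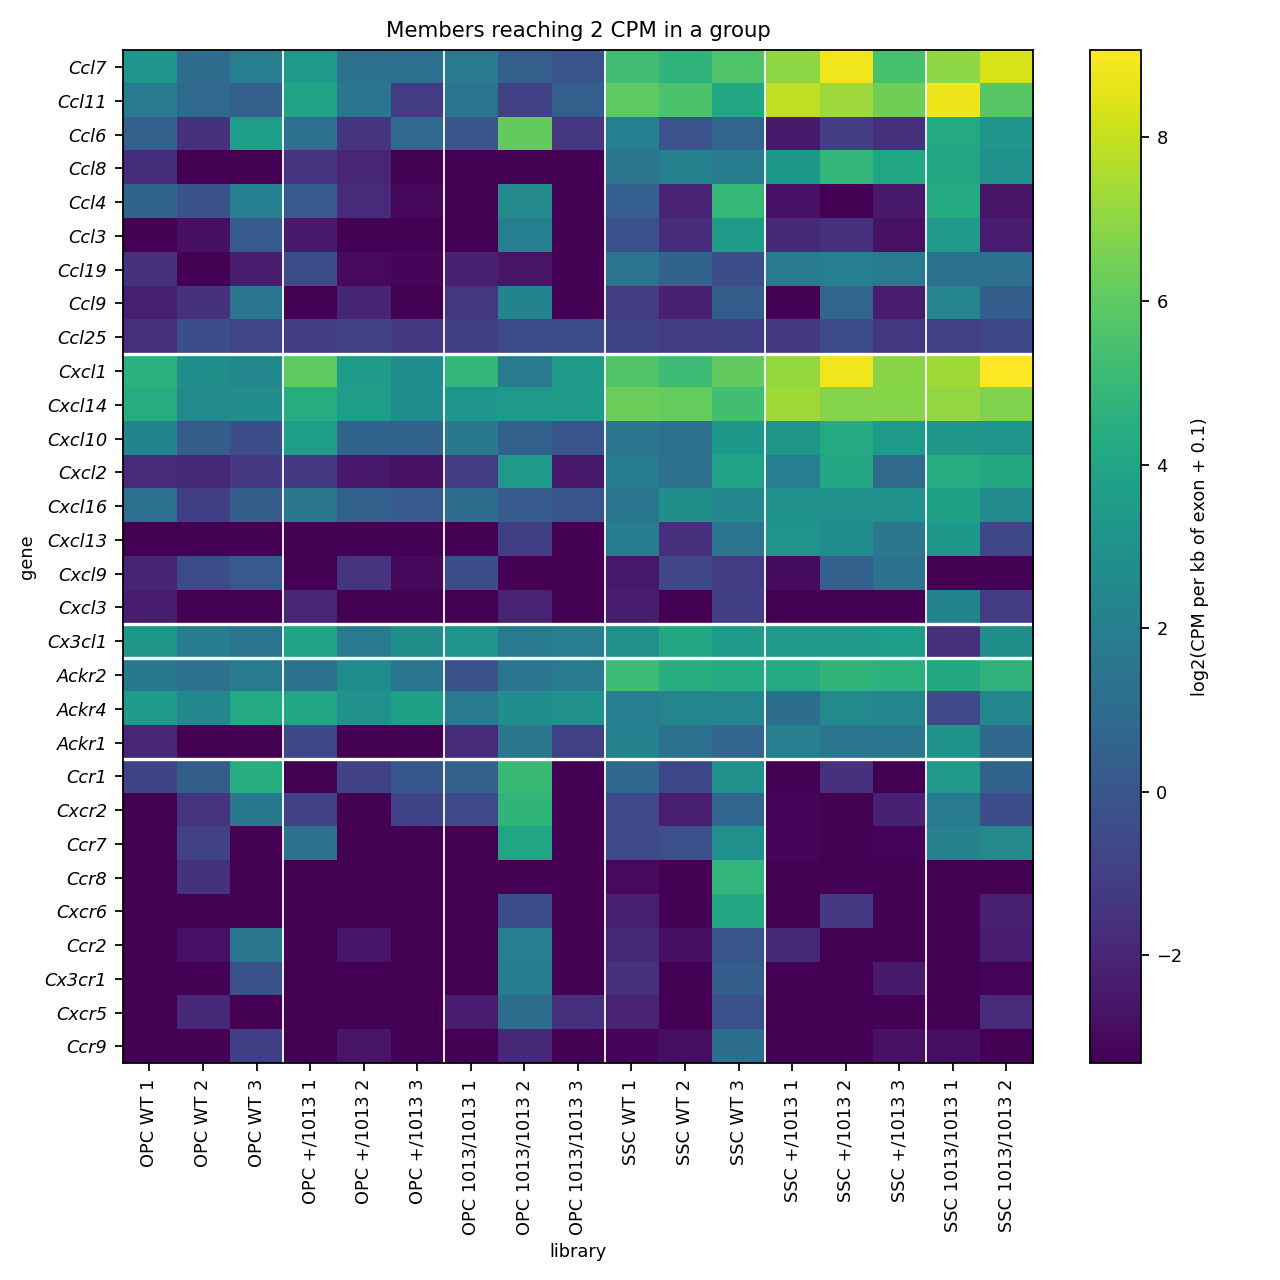
Level of the 30 genes that reached a mean of 2 CPM in at least 1 group, as log2(CPM per kb of exon + 0.1) by color, with 1 column per library and thin white lines between groups. Thick white lines separate CC ligands, CXC ligands, Cx3cl1, atypical receptors and signaling receptors, and the receptor rows are dark except in single libraries such as OPC 1013/1013 replicate 2 and SSC WT replicate 3.

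The first comparison asked in which of the sorted populations each gene was expressed. It was made within each genotype, so that the 3 comparisons share no library, by edgeR's quasi-likelihood test over the 20238 genes that passed its filter on low counts. Of the 55 genes, 43 were tested. Calls required an adjusted p (Benjamini-Hochberg, over all genes tested) under 0.05 together with a 1.5-fold difference or more. In WT mice 7 of the 43 were called (Ccl7, Ccl8, Ccl11, Cxcl13, Cxcl14, Cxcl16 and Ackr2), beside 11.4% of all genes tested. All 7 were higher in SSCs, a direction in which 5.55% of all genes were called. In +/1013 mice 8 were called, the same 7 and Cxcl2, beside 12.5% of all genes, and again all were higher in SSCs, beside 6.44%. In 1013/1013 mice 7 were called, beside 13.1% of all genes, all higher in SSCs, beside 6.94%. These were Ccl7, Ccl8, Ccl11, Cxcl1, Cxcl14, Cxcl16 and Ackr2. Hence 6 genes, 5 ligands and the atypical receptor Ackr2, were called in all 3 genotypes, and edgeR called no member in the direction of OPCs. Over the 43 members tested, the log2 fold change of SSCs over OPCs had a median of 2.30 in WT, 1.45 in +/1013 and 0 in 1013/1013 mice, against 0.17, 0 and -0.20 over all genes. With genes at 0 in 1 population set to the bound that the limit of detection allows, it was 2.04, 1.39 and 0. The members include receptors with most of their counts in single libraries rich in leukocyte transcripts. Examples are Cxcr6 at 34.6 CPM in WT SSC replicate 3 and Cxcr2 at 83.3 CPM in 1013/1013 OPC replicate 2. The part of these libraries in the medians was not tested, so a trend with genotype cannot be read from them.

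Ccl7 and Ccl8 encode monocyte chemoattractant proteins, and Ccl11 encodes eotaxin, a ligand of the eosinophil receptor Ccr3. Ccl7 was at 6.95, 1.71 and 3.12 CPM in WT OPCs, 8.39, 1.92 and 1.77 in +/1013 OPCs and 2.57, 0.980 and 0.676 in 1013/1013 OPCs. It was at 30.4, 20.9 and 41.0 CPM in WT SSCs, 99.6, 362 and 34.7 in +/1013 SSCs and 99.8 and 257 in 1013/1013 SSCs. Every SSC library thus lay above every OPC library. The log2 fold change of SSCs over OPCs was 2.97 ± 0.90 (SE, edgeR adjusted p = 0.0476) in WT, 5.36 ± 1.00 (edgeR adjusted p = 0.00321) in +/1013 and 6.98 ± 1.10 (edgeR adjusted p = 0.00113) in 1013/1013 mice.

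Ccl11 was also separated without overlap. Its level was 3.78, 1.95 and 1.40 CPM in WT OPCs, 16.4, 2.99 and 0.397 in +/1013 OPCs and 2.83, 0.458 and 1.35 in 1013/1013 OPCs. In SSCs it was 69.5, 50.3 and 17.8 CPM in WT, 252, 167 and 88.9 in +/1013 and 463 and 63.0 in 1013/1013 libraries. The lowest SSC library, WT replicate 3, stood just above the highest OPC library, +/1013 replicate 1. This gave a log2 fold change of 4.27 ± 1.17 (edgeR adjusted p = 0.0306) in WT, 4.68 ± 1.19 (edgeR adjusted p = 0.0195) in +/1013 and 7.40 ± 1.38 (edgeR adjusted p = 0.00342) in 1013/1013 mice.

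Ccl8 was scarce in SSCs and close to the limit of detection in OPCs. In OPCs it had 0.109, 0 and 0 CPM in WT, 0.138, 0.0777 and 0 in +/1013 and 0, 0 and 0 in 1013/1013 libraries. In SSCs it had 1.47, 2.19 and 1.91 CPM in WT, 4.85, 15.1 and 8.37 in +/1013 and 8.42 and 3.80 in 1013/1013 libraries. The log2 fold change was 5.53 ± 1.51 (edgeR adjusted p = 0.0359) in WT and 7.0 ± 1.60 (edgeR adjusted p = 0.0143) in +/1013 mice. In 1013/1013 mice, with no count in OPCs, Ccl8 was at least 127-fold higher in SSCs (bound from 3 counts per OPC library).

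These 3 genes are neighbors on chromosome 11 (GRCm38, GENCODE M21), with Ccl7 at chr11:82045712-82047525, Ccl11 at chr11:82057823-82062955 and Ccl8 at chr11:82115185-82116799, all on the plus strand. Ccl12 lies between Ccl11 and Ccl8 at chr11:82101845-82103400, and Ccl1 beyond Ccl8 at chr11:82176657-82305690 on the minus strand. Ccl12 and Ccl1 had counts in WT SSC replicate 3 alone, at 0.649 and 0.696 CPM. Ccl2, the monocyte attractant that the selection left out, was at 0.601 to 8.87 CPM in OPCs and at 12.7 to 290.0 CPM in SSCs. Another block of CC ligands on the same chromosome, from Ccl5 at chr11:83525778-83530518 through Ccl9, Ccl6 and Ccl3 to Ccl4 at chr11:83662584-83664683, held no member called in any comparison of SSCs with OPCs.

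**Figure D2:**
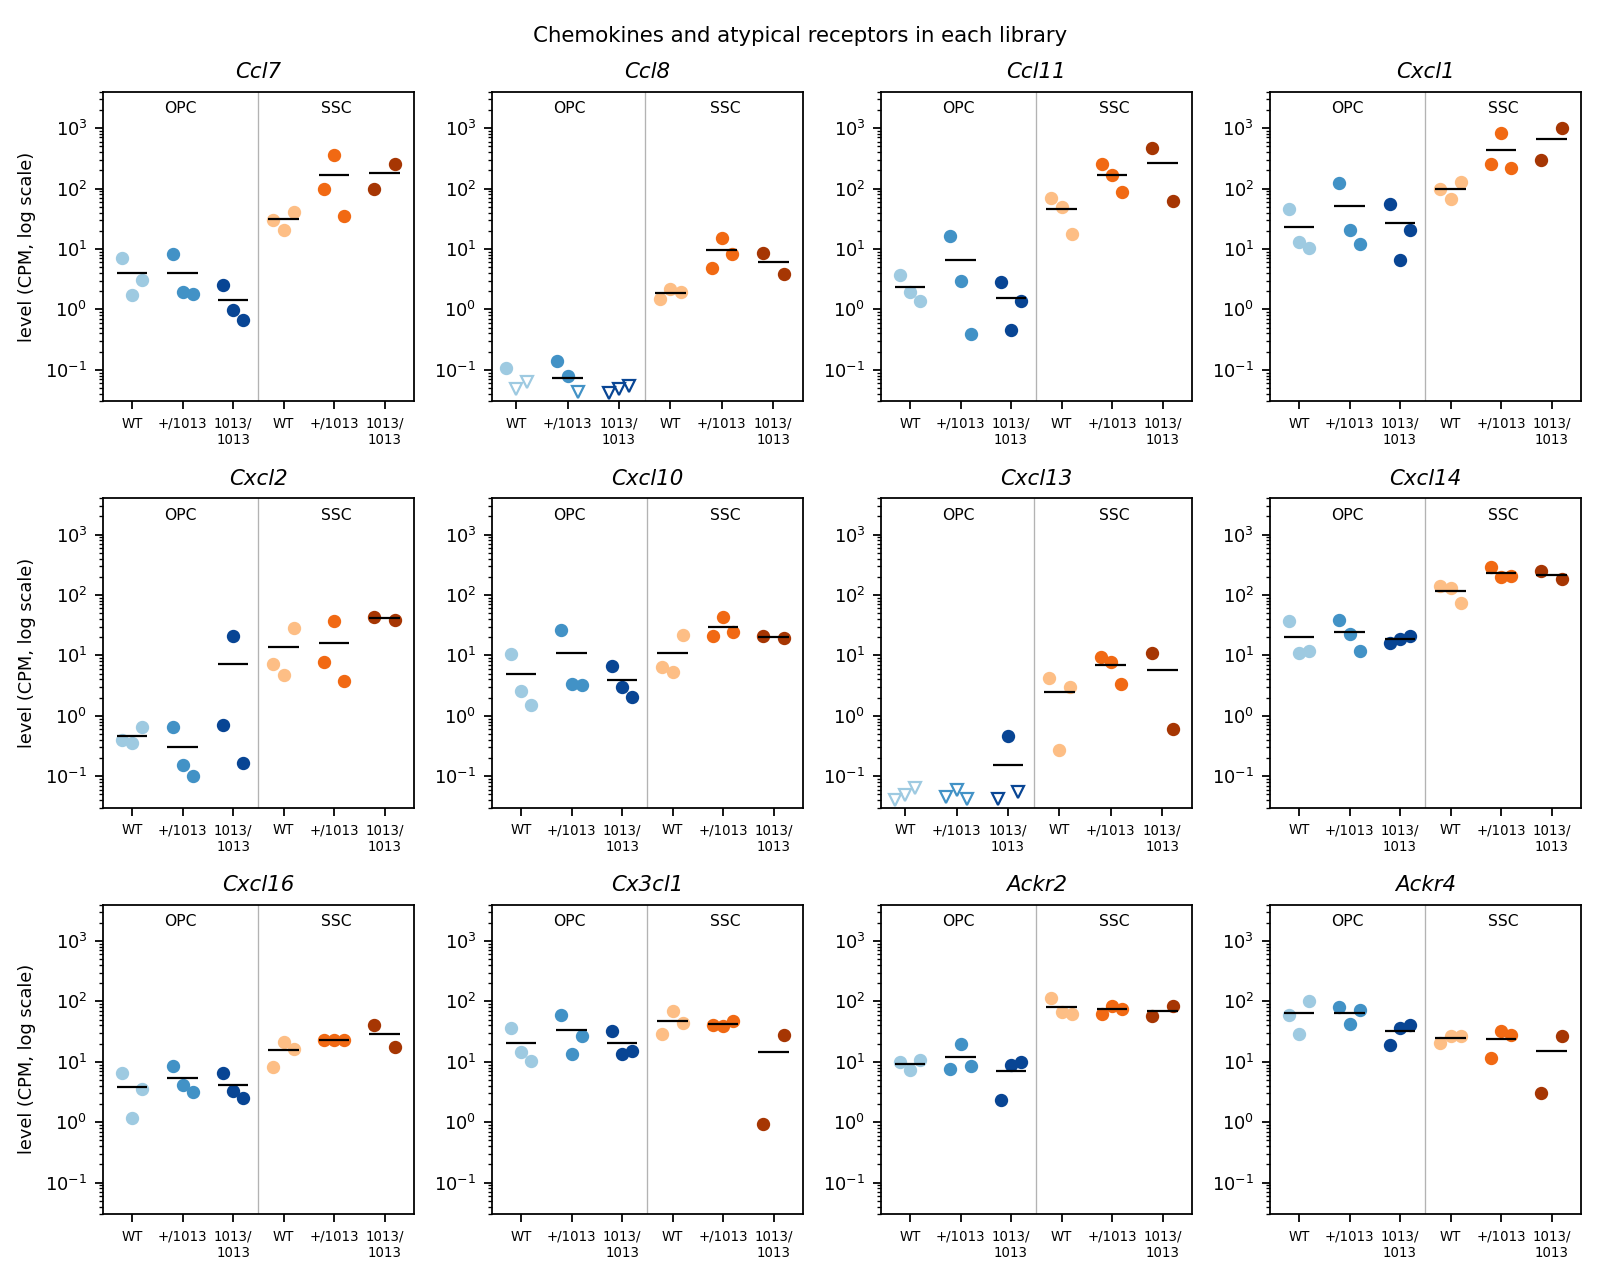
Level of 12 genes in each library in CPM on a log axis, with OPC groups in blue to the left of the grey line and SSC groups in orange to the right. Dots are libraries, black bars are group means and open triangles mark libraries at or below 3 counts, drawn at that limit, and for Ccl7, Ccl8, Ccl11, Cxcl14 and Ackr2 every SSC library lies above every OPC library.

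Cxcl14, a CXC ligand made constitutively by many epithelial and stromal tissues, was among the most abundant members in SSCs. Its level was 36.4, 11.1 and 12 CPM in WT OPCs, 38.9, 22.5 and 11.9 in +/1013 OPCs and 16.3, 18.8 and 20.9 in 1013/1013 OPCs. In SSCs it reached 142, 129 and 73.4 CPM in WT, 286, 197 and 205 in +/1013 and 245 and 184 in 1013/1013 libraries, with no overlap between the populations. On the log2 scale the difference was 2.53 ± 0.49 (edgeR adjusted p = 0.00478) in WT, 3.23 ± 0.51 (edgeR adjusted p = 0.000923) in +/1013 and 3.52 ± 0.54 (edgeR adjusted p = 0.000869) in 1013/1013 mice.

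Cxcl16 encodes a membrane-bound ligand of Cxcr6. It was at 6.61, 1.17 and 3.54 CPM in WT OPCs, 8.67, 4.08 and 3.20 in +/1013 OPCs and 6.48, 3.29 and 2.52 in 1013/1013 OPCs. The SSC values were 8.33, 21.6 and 16.5 CPM in WT, 22.5, 22.5 and 23.0 in +/1013 and 40.0 and 17.3 in 1013/1013 libraries. Within each genotype the populations did not overlap, although WT SSC replicate 1 was below OPC +/1013 replicate 1. For Cxcl16 the log2 fold change was 2.04 ± 0.62 (edgeR adjusted p = 0.0487), 2.09 ± 0.62 (edgeR adjusted p = 0.0405) and 2.81 ± 0.67 (edgeR adjusted p = 0.015) in the 3 genotypes in the same order. Its exons overlap those of Zmynd15 on the opposite strand, and the library kit does not mark strand, so reads of the 2 genes cannot be told apart there.

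Cxcl13, the B cell attractant that binds Cxcr5, had no count in WT and +/1013 OPCs. In 1013/1013 OPCs it was at 0, 0.458 and 0 CPM, the only value above 0 coming from the library rich in leukocyte transcripts. It was at 4.24, 0.270 and 3.02 CPM in WT, 9.53, 7.72 and 3.32 in +/1013 and 11 and 0.614 in 1013/1013 SSCs, with overlap between the genotypes. It was at least 49.5-fold higher in SSCs of WT mice (edgeR adjusted p = 0.0401) and at least 140.0-fold higher in +/1013 mice (edgeR adjusted p = 0.025). In 1013/1013 mice the log2 fold change was 5.22 ± 2.09 (edgeR adjusted p = 0.136).

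Cxcl1 and Cxcl2 attract neutrophils through Cxcr2 and, with Cxcl3, lie together on chromosome 5. Cxcl1 was at 45.6, 12.9 and 10.2 CPM in WT OPCs, 124, 20.5 and 12.1 in +/1013 OPCs and 54.5, 6.58 and 20.4 in 1013/1013 OPCs. It was at 97.7, 67.2 and 127 CPM in WT SSCs, 257, 839 and 216 in +/1013 SSCs and 291 and 1005 in 1013/1013 SSCs. Within each genotype the SSC libraries lay above the OPC libraries, but the 2 SSC libraries of over 800 CPM set the mutant means. Cxcl1 had a log2 fold change of 2.08 ± 0.97 (edgeR adjusted p = 0.188) in WT and 3.07 ± 1.01 (edgeR adjusted p = 0.0631) in +/1013 mice, neither of them called, and 4.58 ± 1.12 (edgeR adjusted p = 0.0167) in 1013/1013 mice.

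Cxcl2 was at 0.394, 0.357 and 0.649 CPM in WT OPCs, 0.661, 0.155 and 0.0992 in +/1013 OPCs and 0.707, 20.7 and 0.164 in 1013/1013 OPCs. In SSCs it was at 7.31, 4.66 and 28.9 CPM in WT, 7.81, 36.5 and 3.81 in +/1013 and 43.7 and 38 in 1013/1013 libraries. The one high OPC value was again that of 1013/1013 OPC replicate 2. The log2 fold change was 4.87 ± 1.54 (edgeR adjusted p = 0.0571) in WT, 5.70 ± 1.60 (edgeR adjusted p = 0.0323) in +/1013 and 2.50 ± 1.45 (edgeR adjusted p = 0.266) in 1013/1013 mice, and only the +/1013 comparison was called. Cxcl3 reached 16.3 CPM in 1013/1013 SSC replicate 1 and 1.25 and 1.39 CPM in 1013/1013 SSC replicate 2 and WT SSC replicate 3, with 0 to 0.538 CPM in the others.

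Several CXC ligands are known targets of nuclear factor-kB (NF-kB), a transcription factor of inflammation. RefSeq promoter windows (GRCm38.p6), 49 in number, were found for 42 of the 55 genes. The 250 bases before the start were searched on both strands for GGGANNTTC, the core of an NF-kB site, where N is any base. These letters were in the windows of 8 members (Cxcl1, Cxcl2, Cxcl3, Cxcl9, Cxcl10, Ccl1, Ccr3 and Cxcr2), 8 of 49 windows, and in 3.23% of all 32851 windows. The stretch from base -170 to base -41 before the start is shown for the 5 CXC ligands among them, since 3 of these form 1 block and are described above. Capitals mark the matched letters on either strand.

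Cxcl1, chr5:90891075-90891204, plus strand: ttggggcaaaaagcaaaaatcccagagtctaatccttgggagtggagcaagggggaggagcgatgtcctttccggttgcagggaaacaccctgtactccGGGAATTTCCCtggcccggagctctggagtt

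Cxcl2, chr5:90903729-90903858, plus strand: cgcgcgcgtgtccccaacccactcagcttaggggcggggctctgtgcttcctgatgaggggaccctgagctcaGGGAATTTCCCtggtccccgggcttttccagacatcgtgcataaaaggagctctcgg

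Cxcl3, chr5:90785931-90786060, plus strand: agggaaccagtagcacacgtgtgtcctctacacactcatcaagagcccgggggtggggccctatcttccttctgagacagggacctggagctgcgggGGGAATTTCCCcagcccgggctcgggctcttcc

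Cxcl9, chr5:92328120-92328249, minus strand: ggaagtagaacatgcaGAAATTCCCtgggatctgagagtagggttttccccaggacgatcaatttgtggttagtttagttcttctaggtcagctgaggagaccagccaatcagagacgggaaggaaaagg

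Cxcl10, chr5:92348930-92349059, minus strand: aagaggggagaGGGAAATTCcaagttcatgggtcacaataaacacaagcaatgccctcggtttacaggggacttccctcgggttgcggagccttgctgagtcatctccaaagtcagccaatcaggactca

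In Cxcl1, Cxcl2 and Cxcl3 the same letters matched on both strands, from bases -71, -97 and -73. This also held for Ccl1, from base -196. Cxcl9 and Cxcl10 had 1 match each, from bases -154 and -159. The AP-1 letters TGANTCA were in 6 member windows (Ccl9, Ccl27a, Ccl27b, Ccr3, Ccr4 and Cxcl10) and in 6.75% of all windows. The letters GAAANNGAA of an interferon-stimulated response element were in 8 (Ccl1, Ccl3, Ccl19, Ccr2, Cxcl9, Cxcl10, Cxcl14 and Cxcr1) and in 7.13% of all windows. A match is a description of the letters and no evidence that a factor binds there.

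Cxcl9 and Cxcl10 are interferon-inducible ligands of the T cell receptor Cxcr3. Cxcl10 was at 10.6, 2.57 and 1.53 CPM in WT OPCs, 26.3, 3.34 and 3.24 in +/1013 OPCs and 6.77, 3 and 2.03 in 1013/1013 OPCs, and at 6.30, 5.33 and 21.4 CPM in WT, 20.7, 42.8 and 24.1 CPM in +/1013 and 20.7 and 19.3 CPM in 1013/1013 SSCs. The populations overlapped in WT and +/1013 mice, and no comparison was called (edgeR adjusted p = 0.138 in 1013/1013 mice, where they did not overlap). Its exons overlap those of Art3 on the opposite strand. Cxcl9 was highest in +/1013 SSC replicate 3 with 7.39 CPM and at 0 to 3.91 CPM in the other 16 libraries.

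Cx3cl1 encodes fractalkine, the membrane-bound ligand of Cx3cr1, and was one of the members shared by both populations. It was at 36.8, 14.4 and 10.4 CPM in WT OPCs, 59.5, 13.4 and 27.1 in +/1013 OPCs and 32.8, 13.2 and 15.0 in 1013/1013 OPCs. In SSCs it was at 29.1, 69.8 and 43.7 CPM in WT, 40.4, 38.8 and 47.3 in +/1013 and 0.917 and 28.2 in 1013/1013 libraries. The 0.917 CPM of 1013/1013 SSC replicate 1 was the lowest of all 17. The log2 fold changes of SSCs over OPCs were 1.21 ± 0.86, 0.34 ± 0.85 and -0.49 ± 0.96, none of them called. Ccl25, a ligand of Ccr9 best known from thymus and gut, was near the same level throughout, with 1.66 to 5.15 CPM in OPCs and 2.13 to 4.62 CPM in SSCs. Its log2 fold changes were -0.18 ± 0.50, 0.15 ± 0.50 and -0.18 ± 0.56 in WT, +/1013 and 1013/1013 mice. Ccl25 shares exon sequence with Elavl1 on the opposite strand. Ccl19, a ligand of Ccr7, was at 0 to 0.599 CPM in OPCs and 0.570 to 3.32 CPM in SSCs, with edgeR adjusted p from 0.0655 to 0.147.

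The 3 atypical receptors differed in their distribution. Ackr2, which scavenges inflammatory CC chemokines, was at 9.87, 7.26 and 10.8 CPM in WT OPCs, 7.53, 19.8 and 8.46 in +/1013 OPCs and 2.36, 8.74 and 9.95 in 1013/1013 OPCs. In SSCs it was at 113, 67.8 and 61.7 CPM in WT, 62.3, 84.7 and 74.9 in +/1013 and 57.7 and 83.3 in 1013/1013 libraries. The lowest SSC library was thus well above the highest OPC library. SSCs exceeded OPCs by a log2 fold change of 3.12 ± 0.51 (edgeR adjusted p = 0.00162) in WT, 2.63 ± 0.50 (edgeR adjusted p = 0.00351) in +/1013 and 3.33 ± 0.54 (edgeR adjusted p = 0.00134) in 1013/1013 mice. It is at chr9:121898355-121911074 and shares no exon with another gene.

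Ackr4 scavenges Ccl19, Ccl21 and Ccl25, and its values were lower in SSCs. It was at 59.1, 28.9 and 102 CPM in WT OPCs, 82.1, 41.4 and 71.4 in +/1013 OPCs and 18.6, 36.2 and 41.1 in 1013/1013 OPCs, and at 20.8, 26.6 and 26.7 CPM in WT, 11.4, 32.7 and 27.3 CPM in +/1013 and 3.08 and 26.6 CPM in 1013/1013 SSCs. The populations did not overlap in WT and +/1013 mice and overlapped in 1013/1013 mice. With log2 fold changes of -1.36 ± 0.65 (edgeR adjusted p = 0.198), -1.45 ± 0.65 (edgeR adjusted p = 0.166) and -1.11 ± 0.74 (edgeR adjusted p = 0.326), it did not pass the test, and its exons overlap those of Acad11 on the opposite strand. Ackr1, the Duffy antigen, which binds CC and CXC ligands and is known from erythroid and venular endothelial cells, was at 0 to 4.05 CPM in OPCs and 2.14 to 11.5 CPM in SSCs (edgeR adjusted p from 0.103 to 0.471). Its exons overlap those of Cadm3 on the same strand. The summed level of 8 endothelial markers was 3.25 to 54.8 CPM in OPCs and 21.4 to 150 CPM in SSCs, of which Tek alone had 1.21 to 16.2 and 15.1 to 86.6 CPM. The summed level of 6 erythroid markers was 7.82 to 3154 CPM in OPCs and 111 to 879 CPM in SSCs. Its highest value was in 1013/1013 OPC replicate 2, the OPC library with the 4.05 CPM of Ackr1. The part of either list in the Ackr1 values was not tested.

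**Figure D3:**
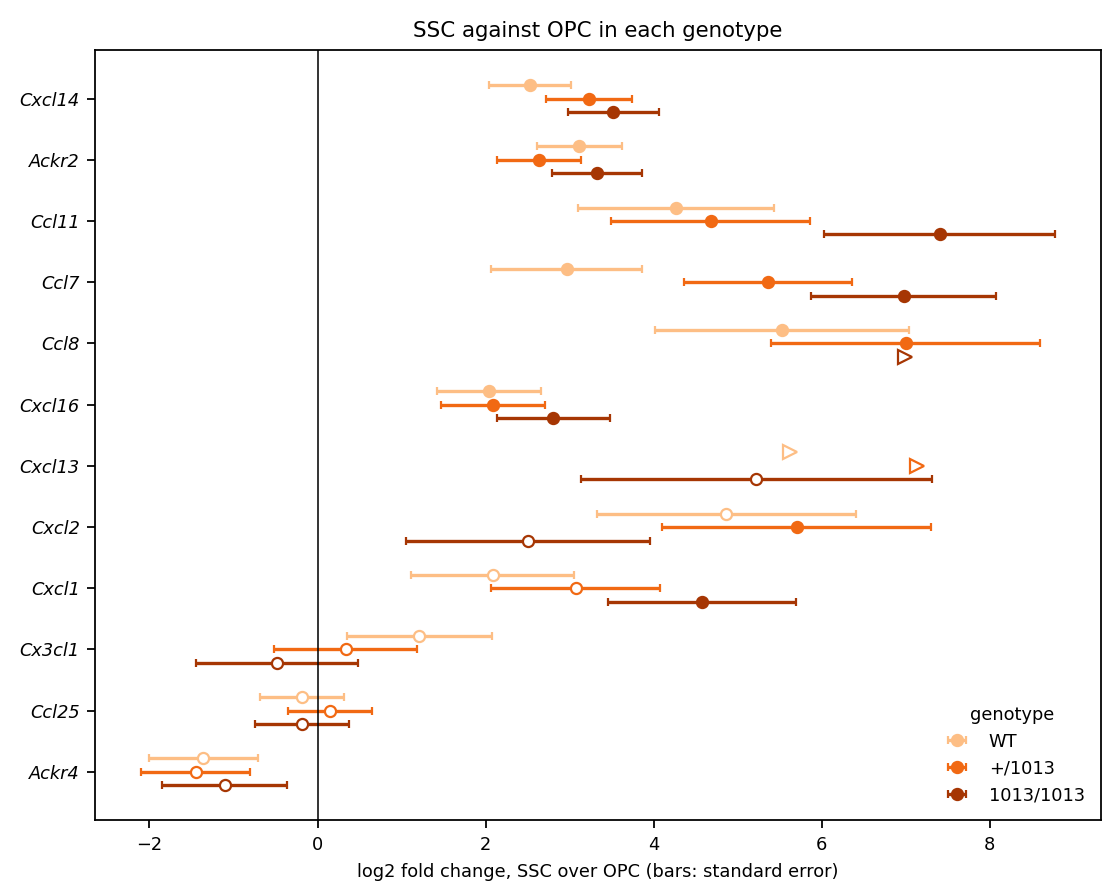
Log2 fold change of SSCs over OPCs for 12 genes in WT, +/1013 and 1013/1013 mice, with bars for the standard error from the edgeR fit of all 17 libraries. Filled points were called, open points were not, open triangles are lower bounds for genes with no count in OPCs, and Ackr4 alone lies to the left of 0 in all genotypes with its whole bar.

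The number of calls depended on single libraries in all 3 genotypes. Without the 3 libraries rich in leukocyte transcripts, a setting added after the data had been seen, 2 members were called in WT mice, beside 5.34% of all genes, and these were Cxcl14 and Ackr2. In +/1013 mice 7 were called, beside 13.5%, with Cxcl16 lost. In 1013/1013 mice 7 were called, beside 11.5%, with Cxcl1 and Cxcl16 lost and Cxcl2 and Cxcl13 gained. Leaving out any single WT library other than OPC replicate 1 left 2 or 3 members called in WT mice, always with Cxcl14 and Ackr2 among them. Leaving out OPC replicate 1 gave 11 calls in +/1013 mice, whereas leaving out OPC replicate 2 left 3, and leaving out OPC replicate 3, SSC replicate 1 or SSC replicate 2 left 5, always with Ccl7, Cxcl14 and Ackr2. In WT mice, where same-numbered OPC and SSC libraries deviated together, the replicate number as a block left 6 calls, without Cxcl13. In a fit of these 2 groups alone the block left 5, without Ccl8, Cxcl13 and Cxcl16 and with Cxcl2. Shares of all genes are given here only for the setting without the 3 leukocyte-rich libraries. The other counts show only which calls held.

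The counts of the signaling receptors were concentrated in few libraries. The summed level of the 17 receptors was 95.6 CPM in WT OPC replicate 3, 269 CPM in 1013/1013 OPC replicate 2 and 147 CPM in WT SSC replicate 3, the 3 libraries with the most leukocyte transcripts. It was 47.6 and 21 CPM in the 2 libraries of 1013/1013 SSCs, where the leukocyte markers summed to 929 and 535 CPM, and 1.02 to 10.6 CPM in the other 12. No receptor exceeded 3 counts in all 17 libraries, and none was called between SSCs and OPCs.

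**Figure D4:**
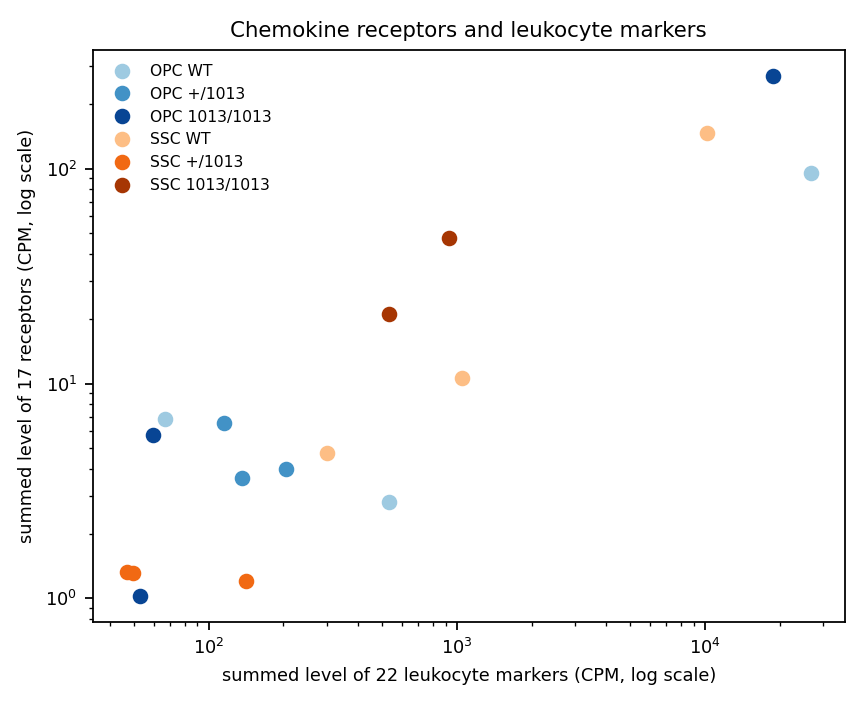
Summed level of the 17 signaling receptors against the summed level of 22 leukocyte markers, both in CPM on log axes, with 1 point per library colored by group. The 3 libraries with over 10000 CPM of leukocyte markers have 95.6 to 269 CPM of receptors, and the 2 libraries of 1013/1013 SSCs lie above libraries with similar marker levels.

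Ccr1, a receptor of myeloid cells, was at 1.32, 3.30 and 59.9 CPM in WT OPCs, 0, 1.22 and 2.59 in +/1013 OPCs and 3.68, 94.8 and 0 in 1013/1013 OPCs. In SSCs it was at 4.68, 1.54 and 20.9 CPM in WT, 0, 0.690 and 0 in +/1013 and 29.4 and 4.02 in 1013/1013 libraries. Its 3 highest values outside 1013/1013 SSC replicate 1 were those of the leukocyte-rich libraries. Cxcr2, the neutrophil receptor of Cxcl1 and Cxcl2, was at 0, 0.861 and 9.05 CPM in WT, 1.37, 0 and 1.39 CPM in +/1013 and 1.75, 83.3 and 0 CPM in 1013/1013 OPCs. It was at 1.73, 0.330 and 4.71 CPM in WT, 0.0343, 0 and 0.367 CPM in +/1013 and 9.70 and 2.12 CPM in 1013/1013 SSCs. Ccr2, the monocyte receptor of Ccl2 and Ccl7, was at 19.4, 25.9 and 5.63 CPM in WT OPC replicate 3, 1013/1013 OPC replicate 2 and WT SSC replicate 3 and at 0 to 1.11 CPM in the other 14 libraries.

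Ccr7, the receptor of Ccl19 and Ccl21 on lymphocytes and dendritic cells, was at 30.5 CPM in 1013/1013 OPC replicate 2, 14.4 CPM in WT SSC replicate 3 and 8.09 and 11.1 CPM in 1013/1013 SSCs. In the remaining libraries it was at 4.73 CPM in +/1013 OPC replicate 1 and at 0 to 1.44 CPM otherwise. Cx3cr1, carried by monocytes and macrophages, was at 3.35, 15.9 and 5.24 CPM in the 3 leukocyte-rich libraries and at 0 to 1.02 CPM elsewhere. Ccr8, Ccr9 and Cxcr6, receptors of T cells, reached 33.8, 22.2 and 34.6 CPM in WT SSC replicate 3, and no more than 0.292, 3.96 and 1.34 CPM in any other library. The T cell markers Cd3e and Cd3g were at only 0.111 and 0.127 CPM in WT SSC replicate 3, and which cells held these receptors was not tested. Cxcr5, the B cell receptor of Cxcl13, was at 6.84 CPM in 1013/1013 OPC replicate 2, 2.40 CPM in WT SSC replicate 3 and 0 to 0.712 CPM elsewhere. Cxcr5, Ccr9 and Cx3cr1 each share exon sequence with other genes. The other 8 receptors, among them Cxcr1 and Cxcr3, had group means of at most 1.13 CPM, and the highest value of Cxcr1 and of Cxcr3 was in 1013/1013 OPC replicate 2.

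The other chromosome 11 block held 4 CC ligands whose highest values were in different libraries. Ccl3 and Ccl4 are ligands made by activated leukocytes, and Ccl6 and Ccl9 are mouse ligands of Ccr1. Ccl6 was at 2.32, 0.439 and 21.5 CPM in WT OPCs, 4.35, 0.466 and 3.14 in +/1013 OPCs and 1.53, 122 and 0.511 in 1013/1013 OPCs, and at 7.14, 1.44 and 2.82 CPM in WT, 0.154, 0.671 and 0.402 CPM in +/1013 and 33.7 and 15.5 CPM in 1013/1013 SSCs. Ccl9 reached 8.42 CPM in WT OPC replicate 3, 14.1 CPM in 1013/1013 OPC replicate 2 and 14.9 CPM in 1013/1013 SSC replicate 1, with at most 4.93 CPM elsewhere. Ccl3 and Ccl4 were highest in WT SSC replicate 3, at 8.40 and 20.2 CPM, and in 1013/1013 SSC replicate 1, at 7.59 and 12.9 CPM, and no higher than 3.02 and 3.73 CPM elsewhere. The latter library had Ptprc at 0.0367 CPM and 929 CPM of leukocyte markers in sum. The part of leukocytes in these values was not tested. Ccl5, a ligand made by T cells, did not exceed 1.03 CPM in any library, and Cxcl5 did not exceed 3.18 CPM.

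The second comparison asked how the genotypes differed within each population, in a fit of the 3 genotypes of that population. In OPCs 27 of the 55 genes were tested among 16207, and no member was called by edgeR in any of the 3 comparisons. For +/1013 with WT, none was under an unadjusted p of 0.05, beside 2.04% of all genes, and 0% of all genes were called. For 1013/1013 with WT, 1 member was under it, beside 3.38%, and 0.00617% of all genes were called. For 1013/1013 with +/1013, 2 were, beside 3.17%, and 0% were called. DESeq2's Wald test called no member either, beside 0.358%, 0.259% and 0.364% of all genes in the same order. The 2 genes under 0.05 were Cxcl2, with the 20.7 CPM of 1013/1013 OPC replicate 2 (edgeR adjusted p of 1.00 or 0.999), and Cxcr5. Cxcr5 had no count in +/1013 OPCs and 0.319, 6.84 and 0.712 CPM in 1013/1013 OPCs, at least 53.6-fold higher (edgeR adjusted p = 0.999), a bound that rests on the 6.84 CPM of the leukocyte-rich replicate 2.

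In SSCs 39 of the 55 genes were tested among 17659, and no member was called by edgeR in any comparison. For +/1013 with WT, 15 members had an unadjusted p under 0.05, beside 17.3% of all genes, and 0.0736% of all genes were called. The libraries did not overlap for 11 members, 6 higher and 5 lower in +/1013, beside 31.2% of all genes. For 1013/1013 with WT, 8 members had an unadjusted p under 0.05, beside 18.3%, 10 did not overlap, beside 40.7%, and 0% were called. For 1013/1013 with +/1013, 8 members had an unadjusted p under 0.05, beside 5.53%, 11 did not overlap, beside 15.9%, and 0% were called. An exact permutation test of groups that do not overlap has a two-sided p of at least 0.1 for 3 against 3 libraries and 0.2 for 3 against 2. DESeq2's Wald test called 9 members between +/1013 and WT, beside 7.37% of all genes, namely Ccl7, Ccl8, Cxcl1 and Cxcl14 as higher and Ccl3, Ccl6, Cxcl3, Ccr1 and Cxcr2 as lower. It called 5 between 1013/1013 and WT, beside 9.67%, with Ccl6, Ccl7, Ccl11 and Cxcl1 higher and Cxcl9 lower, and 3 between the mutants, beside 0.957% (Ccl6 and Cxcl3 higher and Cxcl9 lower in 1013/1013). The main test and DESeq2 thus differed on these members. DESeq2 was not run without WT SSC replicate 3. That library had the highest WT SSC value of Ccl3, Cxcl3, Ccr1 and Cxcr2, but not of Ccl6. Values follow for members without overlap that also had an unadjusted p under 0.05 and a mean of at least 1 CPM in 1 of the groups.

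The shares of members without overlap between WT and mutant SSCs, 11 and 10 of 39, were below those over all genes. Other shares were above them. These were the 15 of 39 at an unadjusted p under 0.05 for +/1013 with WT, beside 17.3%, and both shares between the mutants. The differences that follow are values of single genes. Between +/1013 and WT SSCs the log2 difference was 2.14 ± 0.65 for Cxcl1 (edgeR adjusted p = 0.187), 2.32 ± 0.60 for Ccl8 (edgeR adjusted p = 0.158), 1.87 ± 0.79 for Ccl11 (edgeR adjusted p = 0.281) and 0.99 ± 0.29 for Cxcl14 (edgeR adjusted p = 0.177). Each of the 3 mutant libraries was above each WT library for these 4 genes. Between 1013/1013 and WT SSCs it was 2.73 ± 0.71 for Cxcl1 (edgeR adjusted p = 0.142), 2.53 ± 0.87 for Ccl7 (edgeR adjusted p = 0.204), 1.74 ± 0.63 for Ccl8 (edgeR adjusted p = 0.222) and 0.92 ± 0.32 for Cxcl14 (edgeR adjusted p = 0.204), with both mutant libraries above all WT libraries. Among the other ligands called between the populations, Cxcl13 overlapped WT in both mutants, as did Ccl7 and Cxcl2 in +/1013 and Ccl11 and Cxcl16 in 1013/1013 SSCs. Cxcl16 in +/1013 and Cxcl2 in 1013/1013 SSCs lay above all WT libraries, and no fold change is given for them. Both comparisons use the same 3 WT libraries. Between the mutants none of Cxcl1, Ccl7, Ccl8, Ccl11 and Cxcl14 came apart, with log2 differences from -0.59 to 0.69. Over all genes tested the median log2 difference was -0.11 for +/1013 and -0.23 for 1013/1013 with WT, and over the 39 members -0.19 and 0.59.

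Other measures also differed between WT and mutant SSC libraries. The summed level of 7 osteoblast markers was 9915, 12132 and 8158 CPM in WT, 1939, 2466 and 3629 in +/1013 and 1984 and 4532 in 1013/1013 SSCs, so every mutant library was below every WT library. Of these markers 7 of 7 were lower in +/1013 and 5 of 7 in 1013/1013 than in WT SSCs, none of them called. Most of the sum was Col1a1, at 8813, 10539 and 7535 CPM in WT, 1006, 1172 and 2954 in +/1013 and 1639 and 2558 in 1013/1013 SSCs. The separation of the sums thus rests on Col1a1. Ibsp, the next most abundant, overlapped between genotypes, with 848, 985 and 418 CPM in WT, 725, 1006 and 440 in +/1013 and 299 and 1539 in 1013/1013 SSCs. Ly6a, the sort marker, was at 599, 386 and 405 CPM in WT, 1367, 890.0 and 989.7 in +/1013 and 1450.1 and 838 in 1013/1013 SSCs. The share of reads on no gene was 3.68, 4.15 and 3.72% in WT and 1.53, 1.80 and 1.59% in +/1013 and 2.69 and 1.5% in 1013/1013 SSC libraries. Cxcl12, the ligand of Cxcr4, was at 545, 692 and 350.2 CPM in WT, 1642, 827 and 1032 in +/1013 and 797 and 1061 in 1013/1013 SSCs. The part of osteoblast lineage cells, of the sort or of library preparation in the chemokine values was not tested, and preparation and genotype cannot be told apart here since no batch is labelled.

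Single libraries set the size of several differences. The highest Ccl11 values, 463 CPM in 1013/1013 SSC replicate 1 and 252 CPM in +/1013 SSC replicate 1, came with the highest sums of 8 endothelial markers, 150 and 139 CPM, against 21.4 to 64.4 CPM in the other SSC libraries. Tek alone gave 86.6 and 61.8 CPM of these 2 sums, and 59.2 CPM of the 64.4. The other markers were mixed. Egfl7 was highest in the same 2 libraries, at 30.9 and 12.1 CPM. Pecam1 was at 1.89 and 35.1 CPM there and at up to 8.95 CPM in the other SSC libraries. The highest Cxcl1 values, 839 and 1005 CPM, and the highest Ccl7 values, 362 and 257 CPM, were those of +/1013 SSC replicate 2 and 1013/1013 SSC replicate 2. Ccl2 was at 30.2, 12.7 and 36.6 CPM in WT, 139.8, 290.0 and 20.4 in +/1013 and 17 and 143 in 1013/1013 SSCs, with its highest values in the same libraries but a value close to the second of them in +/1013 SSC replicate 1. The 28 genes of an NF-kB pathway list summed to 3748 CPM in +/1013 SSC replicate 2 and 3955 CPM in 1013/1013 SSC replicate 2, but also to 3697 CPM in WT SSC replicate 3, where Cxcl1 was at 127 CPM, and to 1659.7 to 2395 CPM in the other 5 SSC libraries. Among SSC libraries, the 2 highest in Cxcl1 also had the highest summed level of 8 immediate-early genes such as Fos and Egr1. Their sums were 21995.7 and 22229.8 CPM, against 12049.2 to 16546.2 CPM in the other SSC libraries. OPC 1013/1013 replicate 1 had a similar sum, 22061.7 CPM, with Cxcl1 at 54.5 CPM. This list was chosen after its values had been seen. The part of these measures in the Ccl11, Cxcl1 and Ccl7 values was not tested. Without 1013/1013 SSC replicate 2, 1 library is left, which is assumed to vary like the other groups. In this setting Ccl11 was called as higher than in WT SSCs, and Ccl6 and Ccr7 as higher than in +/1013 SSCs. Cx3cl1 and Ackr4 were called as lower than in WT and +/1013 SSCs. The share of all genes called in this setting is not given, so the calls are not read as a result about the members. The same setting called Cx3cl1 and Ackr4 as lower in SSCs than in OPCs of 1013/1013 mice. These calls describe replicate 1, where Ackr4 was at 3.08 and Cx3cl1 at 0.917 CPM.

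Several leukocyte-type genes had lower values in +/1013 SSCs than in WT or 1013/1013 SSCs, none of them called. Between +/1013 and WT SSCs the log2 difference was -3.23 ± 0.81 for Ccl6 (edgeR adjusted p = 0.153), -8.20 ± 1.54 for Ccr7 (edgeR adjusted p = 0.11), -7.86 ± 2.78 for Ccl4 (edgeR adjusted p = 0.223) and -5.33 ± 2.01 for Ccr1 (edgeR adjusted p = 0.244). The WT means of Ccr7, Ccl4 and Ccr1 were set by the leukocyte-rich WT SSC replicate 3, with 14.4, 20.2 and 20.9 CPM against 1.13 and 1.44 CPM for Ccr7, 0.790 and 0.0899 CPM for Ccl4 and 4.68 and 1.54 CPM for Ccr1 in the other WT libraries. Without that library the log2 difference was -6.04 for Ccr7 (edgeR adjusted p = 0.201), -3.82 for Ccl4 (edgeR adjusted p = 0.569), -3.76 for Ccr1 (edgeR adjusted p = 0.538) and -3.39 for Ccl6 (edgeR adjusted p = 0.326). In +/1013 SSCs only replicate 2 had a Ccr1 count. Ccr7, at 0.0343, 0 and 0.0175 CPM, and Ccl4, at 0.0343, 0 and 0.0524 CPM, did not exceed 3 counts in any +/1013 SSC library. The log2 differences of Ccr7 and Ccl4 with +/1013 SSCs are thus fitted values, and their size lies beyond the limit of detection. Between 1013/1013 and +/1013 SSCs the difference was 5.95 ± 0.94 for Ccl6, 8.95 ± 1.61 for Ccr7, 6.24 ± 2.15 for Ccr1 and 5.49 ± 1.86 for Cxcr2, all with an edgeR adjusted p of 0.788. Ccl6 was also 2.72 ± 0.83 log2 units above WT in 1013/1013 SSCs (edgeR adjusted p = 0.176). Cxcl3 had no count in +/1013 SSCs and 16.3 and 1.25 CPM in 1013/1013 SSCs, so that its level there rested on replicate 1. Cxcl9 was at 0.103, 3.91 and 7.39 CPM in +/1013 SSCs and had no count in 1013/1013 SSCs. The 22 leukocyte markers summed to 1045, 299.6 and 10166 CPM in WT, 141, 46.7 and 49.3 in +/1013 and 929 and 535 in 1013/1013 SSCs. All 20 markers tested were lower in +/1013 than in WT SSCs and 18 of 20 were higher in 1013/1013 than in +/1013 SSCs, none of them called, and their part in the values of these members was not tested.

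Whether a genotype acted differently in SSCs and OPCs was tested as a difference of effects in the fit of all 17 libraries. Of the 43 members tested none was called by edgeR for +/1013, where 0.084% of all genes were, and 1 (Ccr7) had an unadjusted p under 0.05, beside 10.6%. For 1013/1013 none was called, beside 0.153%, and 5 had an unadjusted p under 0.05 (Ccl7 and Ccl8 among them), beside 15%. The difference of the 1013/1013 effect was 4.01 ± 1.27 log2 units for Ccl7 (edgeR adjusted p = 0.198). DESeq2 called none for +/1013, beside 2.16%, and 2 for 1013/1013, Ccl7 as larger and Cxcl9 as smaller in SSCs, beside 5.64%.

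Other genes of these pathways were counted over whole lists, to be read against the same shares of all genes called. Among 12 further chemokine system genes, 11 were tested. In WT mice 3 were called as higher in SSCs than in OPCs. In +/1013 mice 5 were called as higher and 2 as lower, and in 1013/1013 mice 4 were called as higher. Cxcl12 was called in +/1013 (2.94 ± 0.78, edgeR adjusted p = 0.0248) and 1013/1013 mice (3.04 ± 0.83, edgeR adjusted p = 0.028), as was Ccl2. Ackr3, the scavenger of Cxcl12, was called in all 3 genotypes, at log2 fold changes of 1.07 ± 0.33, 1.68 ± 0.33 and 1.85 ± 0.36. Of 28 genes of the NF-kB pathway, 6 were called as higher in SSCs in WT mice, 3 in +/1013 and 4 in 1013/1013 mice, where 1 (Traf2) was called as lower. Il1r1, the receptor of interleukin-1, was among them in WT (1.99 ± 0.52, edgeR adjusted p = 0.0248) and +/1013 mice (2.21 ± 0.53, edgeR adjusted p = 0.0142). Over the 28 genes the median difference between SSCs and OPCs was 1.10, 0.55 and 0.61 log2 units. Of 22 interferon response genes, 1 was called in WT (Stat2) and 1 in 1013/1013 mice (Gbp2), both higher in SSCs, and the median was 0.93, 1.00 and 0.89, beside the medians of 0.17, 0 and -0.20 over all genes given above. None of the genes of the 3 lists was called by edgeR between genotypes in either population.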

How the data were processed

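RNA from pools of sorted cells was amplified by SMART-Seq v4 and tagmented with Nextera XT, which does not mark strand. As deposited, the files hold whole-number counts of reads per Ensembl gene, made by the authors with STAR on mm10 and HTSeq. Their versions, annotation and strand setting are not given in the sources used here. HTSeq's special counters were left out, and reads on no gene amounted to 1.15 to 4.15% per library.

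Gene symbols and exons came from GENCODE M21, in which 55154 of 55335 identifiers matched and 181, with at most 0.00197% of counts, did not. Counts were tested with edgeR 4.0.16 (R 4.3.3) after filterByExpr and TMM scaling, by the quasi-likelihood F test with Benjamini-Hochberg adjustment over all genes. SSCs and OPCs were compared in a fit of all 17 libraries, and genotypes in a fit of their population. The fit was tested on simulated data. DESeq2 1.42.0, other scalings, filters, depths, sets of libraries and a replicate block were alternatives. Leaving out the 3 leukocyte-rich libraries and the block within 2 groups were added after the data had been seen. Nothing states that no mouse gave cells to more than 1 pool, so p-values measure only the spread between these libraries. Same-numbered libraries deviated together, with every correlation over 0.1 across 15006 genes, in 3 of 15 pairs of groups. These were WT OPCs with WT SSCs (0.123 to 0.401), +/1013 with 1013/1013 OPCs (0.132 to 0.217), and +/1013 with 1013/1013 SSCs, which had only 2 pairs.

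The members and the lists were chosen with earlier results of these data known. Values are given for members with a group mean of at least 2 CPM and for a list of well-known members. Fold changes are given for members called between populations, and between genotypes for those at an unadjusted p under 0.05, without overlap and with at least 1 CPM. Those named in passing, such as Ccl12 and Ccl27a, were chosen after their values had been seen. Members not named are covered by counts and ranges only.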

Additional observations from a re-analysis of the deposited data

How the results depend on the processing

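Between SSCs and OPCs the bias-adjusted edgeR test called 11 members in WT and 11 in 1013/1013 mice, and a fit of only the 2 groups left 2 in 1013/1013 mice (Ccl7 and Cxcl14). Without the 3 leukocyte-rich libraries 2 were called in WT mice. Leaving out 1 library at a time gave 2 to 6 calls in WT, 3 to 11 in +/1013 and 5 to 9 in 1013/1013 mice. The 2 in WT mice arose without OPC replicate 2, OPC replicate 3 or SSC replicate 2, and the 3 without SSC replicate 1 or 3. Calls of members as lower in SSCs arose only in 1013/1013 mice, for Cx3cl1 and Ackr4 without SSC replicate 2 and for Cxcl9 with DESeq2. Cxcl14 was called under every alternative run in all 3 genotypes, and Ackr2 under all but 1, the fit of only the 2 groups in 1013/1013 mice (edgeR adjusted p = 0.0702). Between genotypes in SSCs DESeq2's Wald test called 9, 5 and 3 members for +/1013 with WT, 1013/1013 with WT and 1013/1013 with +/1013, and 2 for the difference of the 1013/1013 effect. Leaving out 1 library gave 0 to 3 calls for 1013/1013 with WT, 0 to 4 for 1013/1013 with +/1013 and 0 to 1 (Cx3cl1) for that difference, and every call arose without 1013/1013 SSC replicate 2. The other alternatives, bias-adjusted edgeR included, called no member between genotypes. Shares of all genes were given above for DESeq2 between genotypes and for the fits without the leukocyte-rich libraries. For the other settings, the block included, they are not given. A changed number of calls there is therefore not read as a result about the members. The cause of these differences was not tested.

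With the replicate number as a block, 6 members were called between SSCs and OPCs in WT mice (5 in a fit of these 2 groups, Ackr2, Ccl7, Ccl11, Cxcl2 and Cxcl14), 7 in +/1013 mice, with Cxcl1 in place of Cxcl2 and Cxcl13, and 7 in 1013/1013 mice. Beyond these the block changed no call, and 0 members were called between genotypes. In +/1013 and 1013/1013 mice the SSC and OPC libraries share only a number.

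Of 645 alternative values of 41 log2 fold changes none was reversed. The 41 were chosen by calls, or by unadjusted p and lack of overlap, in these same libraries, so this is no support. Of the values, 565 stayed on their side of the threshold, 54 fell below it and 26 rose above it. Genotype differences that stayed were uncalled throughout. Among WT calls, 9 of 17 alternatives fell below it for Cxcl16, 8 of 16 for Ccl8, 7 of 17 for Ccl7 and 6 of 17 for Ccl11. For Cxcl14 and Ackr2 0 of 17 did. Of 106 group means, 15 moved by over 1 SD with CPM of the library total. Depth limits members near or under 3 counts in many libraries, such as Ccl8, Cxcl13 and Cxcl3 in OPCs, and only 2 libraries of 1013/1013 SSCs limit every comparison with them.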
